A study of Homo sapiens with 6 samples.

Results

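DNA methylation was described at 10 genes for neural transcription factors, ZIC1, ZIC2, ZIC4, ZIC5, OTX1, OTX2, POU3F2, POU3F3, NR2F1 and NR2F2, out of 20098 protein-coding genes of the GENCODE annotation of GRCh37. The list was chosen by the measured rise of CpG islands in Reset cells, since some of the largest rises lay near ZIC1, NR2F2 and POU3F3. The levels of Conventional and Reset cells given here are therefore the values that chose the genes, and they are a description. Counts of features that passed a genome-wide test are given beside the share of all features that did so, and they are no independent evidence about these genes. The data are 6 whole-genome bisulfite libraries of H9, a long-used line of human embryonic stem cells, with 3 from Conventional and 3 from Reset cultures. Conventional cells were grown in KSR medium (20%) with bFGF (10 ng/ml). Reset cells had carried inducible NANOG and KLF2 transgenes that were switched off again, and were then kept in PD0325901 (1 μM), CHIR99021 (1 μM), human LIF and Gö6983 (5 μM), which inhibits protein kinase C. Cells of both kinds came from the same line, were grown on mouse embryonic fibroblast feeders and were kept at 5% oxygen. No RNA value is used here, so nothing below is a measure of expression.

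The ZIC genes encode zinc finger proteins that act in the cerebellum, the dorsal neural tube and the neural crest, and OTX1 and OTX2 encode homeodomain proteins of the forebrain, midbrain and sense organs. POU3F2 and POU3F3 are POU homeodomain factors of neural progenitors and upper cortical neurons, while NR2F1 and NR2F2 are orphan nuclear receptors that pattern the cortex and, for NR2F2, also the heart and veins. Such genes commonly lie in long stretches of unmethylated, CpG-rich DNA, termed methylation valleys, that Polycomb proteins cover in pluripotent cells.

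The methylation level is the percentage of calls at CpGs that were methylated. Over all CpGs of chromosomes 1 to 22 and X it was 84.3 to 84.6% in the Conventional and 29.5 to 30.3% in the Reset libraries, from 2.51 to 3.49 calls per CpG and library. A feature was tested where every library had at least 10 calls, and was called where the adjusted p of a quasi-binomial model over all features of its kind was under 0.05. The ratio of Reset to Conventional coverage, each relative to its autosomal mean, was 0.94 to 1.11 at the 8 loci, which are the genes with 25 kb on each side, with ZIC1 and ZIC4 and also ZIC2 and ZIC5 joined because they are neighbours.

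The sequences on which the description turns are 5 stretches of islands that became methylated and, for contrast, 2 stretches just upstream of start sites that stayed low, all read from the forward strand of GRCh37 with each CpG in capitals. The first is a whole island at chr3:147090245-147090447, the next 4 are the 300 bases with the most CpGs of their islands, and the last 2 are the 300 bases before the canonical start. The POU3F3 stretch lies at chr2:105480377-105480676, the NR2F2 stretch at chr15:96877414-96877713 in a coding exon, the NR2F1 stretch at chr5:92930518-92930817 and the OTX2 stretch at chr14:57264085-57264384. The upstream stretches lie at chr2:105470273-105470572 for POU3F3 and chr15:96873629-96873928 for NR2F2.
ZIC1 island: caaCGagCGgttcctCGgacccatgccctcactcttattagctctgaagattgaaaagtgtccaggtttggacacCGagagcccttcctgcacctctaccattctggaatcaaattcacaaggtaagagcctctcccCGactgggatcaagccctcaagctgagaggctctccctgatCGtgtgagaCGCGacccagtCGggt
POU3F3 island: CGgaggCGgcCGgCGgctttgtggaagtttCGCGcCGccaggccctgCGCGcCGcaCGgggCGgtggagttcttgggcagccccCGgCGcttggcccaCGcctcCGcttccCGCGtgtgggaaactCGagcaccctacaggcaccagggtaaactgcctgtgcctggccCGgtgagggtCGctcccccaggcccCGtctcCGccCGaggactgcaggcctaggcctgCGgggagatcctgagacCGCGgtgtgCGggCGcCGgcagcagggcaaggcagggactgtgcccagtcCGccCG
NR2F2 island: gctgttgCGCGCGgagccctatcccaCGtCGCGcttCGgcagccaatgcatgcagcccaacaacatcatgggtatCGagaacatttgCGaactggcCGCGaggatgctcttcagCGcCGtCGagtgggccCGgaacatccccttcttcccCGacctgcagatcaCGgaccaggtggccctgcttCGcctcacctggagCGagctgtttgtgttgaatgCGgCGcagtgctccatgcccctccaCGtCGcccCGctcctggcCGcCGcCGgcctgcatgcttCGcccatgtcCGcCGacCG
NR2F1 island: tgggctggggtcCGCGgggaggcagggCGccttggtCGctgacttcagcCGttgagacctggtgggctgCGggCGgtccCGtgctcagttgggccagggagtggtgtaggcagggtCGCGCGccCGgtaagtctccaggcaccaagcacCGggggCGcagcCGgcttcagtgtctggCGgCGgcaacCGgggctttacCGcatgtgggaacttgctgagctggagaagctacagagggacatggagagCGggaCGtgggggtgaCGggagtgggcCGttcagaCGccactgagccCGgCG
OTX2 island: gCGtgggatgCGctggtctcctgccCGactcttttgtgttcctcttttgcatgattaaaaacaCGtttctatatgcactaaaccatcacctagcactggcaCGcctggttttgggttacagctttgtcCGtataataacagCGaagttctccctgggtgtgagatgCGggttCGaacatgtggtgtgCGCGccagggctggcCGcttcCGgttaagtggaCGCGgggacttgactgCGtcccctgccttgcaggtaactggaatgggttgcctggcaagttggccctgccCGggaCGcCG
POU3F3 start: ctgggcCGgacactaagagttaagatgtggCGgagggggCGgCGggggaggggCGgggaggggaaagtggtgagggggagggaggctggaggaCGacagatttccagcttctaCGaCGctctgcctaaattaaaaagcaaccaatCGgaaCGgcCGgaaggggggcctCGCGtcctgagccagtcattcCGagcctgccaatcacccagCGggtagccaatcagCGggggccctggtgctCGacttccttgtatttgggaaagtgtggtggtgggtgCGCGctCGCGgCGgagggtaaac
NR2F2 start: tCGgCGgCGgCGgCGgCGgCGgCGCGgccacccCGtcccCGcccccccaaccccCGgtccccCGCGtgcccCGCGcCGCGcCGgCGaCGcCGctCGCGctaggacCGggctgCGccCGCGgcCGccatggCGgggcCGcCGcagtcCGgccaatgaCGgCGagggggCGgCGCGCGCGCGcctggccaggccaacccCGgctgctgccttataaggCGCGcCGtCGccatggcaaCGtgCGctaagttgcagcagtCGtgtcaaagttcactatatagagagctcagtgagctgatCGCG

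The island stretches were highly methylated in Reset cells and the upstream stretches were not. The POU3F3 island stretch held 32 CpGs and was at 0% ± 0 (SD, n = 3) in Conventional and 72.4% ± 13.7 in Reset cells, while the stretch upstream of the POU3F3 start held 22 CpGs and was at 0.813% ± 1.41 and 2.39% ± 0.64. In the NR2F2 exon stretch with 31 CpGs the levels were 3.64% ± 4.26 and 83.8% ± 19.4. All 9 CpGs of that stretch with at least 5 calls over the Reset libraries were above 50% in Reset cells, and all 25 such CpGs upstream of the NR2F2 start were at 0%. In Conventional cells that upstream stretch stood at 0%, 24.7% and 1.54% in libraries 1, 2 and 3, so that 1 library was apart from the others. The NR2F1 stretch, with 26 CpGs, went from 0% ± 0 to 61.8% ± 4.5, and the OTX2 stretch, with 19 CpGs, from 2.43% ± 1.51 to 65.2% ± 10.0. The 0% levels are not exact. In Conventional libraries 1, 2 and 3 they rested on 35, 113 and 20 calls for the POU3F3 island stretch and on 26, 76 and 65 calls for the NR2F1 stretch. Of the 32 CpGs of the POU3F3 island stretch 12 had at least 5 calls over the Reset libraries.

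Islands were built from the sequence by merging 200-bp windows in which GC made up 50% or more and CpGs were found at over 0.6 of the expected frequency. The 8 loci held 121 islands, of which 115 could be tested. Of these, 80 were called higher and 11 lower in Reset cells, where 3.81% of all 109308 tested islands were called higher and 83.9% lower. In Conventional cells 104 of the 115 islands were under 20%, and all 80 higher calls fell among them, beside 20.4% of all islands under 20%. In 74 of the 104 every Reset library lay above every Conventional library, beside 21% of all such islands. Their median level went from 1.31 to 16.5%, whereas over all 19665 islands under 20% the medians were 2.18 and 1.94%. In 39 of the 104 the level rose by at least 20 points, and in 18 by at least 40 points. Over all islands under 20%, 7.08% rose by at least 20 points and 2.21% by at least 40. The island just inside the 20-point bound, in the ZIC2-ZIC5 locus, went from 15.2 to 37.6%, and the one just outside, in the ZIC1-ZIC4 locus, from 1.25 to 20.9%. The 11 islands over 50% in Conventional cells moved the other way with a median of 95.4 and then 34.5%, and 94.0 and 38.3% were the medians for all such islands.

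Near 7 of the genes the island with the largest fall was highly methylated in Conventional cells. Near ZIC1 it was chr3:147170289-147170528 in an intron, at 100% in every Conventional library and at 15.8%, 23.1% and 10.5% in the Reset libraries. Those near POU3F3 and POU3F2 fell to 16.1% ± 10.4 and 16.9% ± 14.7 from 94.5% ± 7.3 and 93.7% ± 7.0. The islands of ZIC5, ZIC2 and OTX2 ended at 29.4 to 36.1%, and that of NR2F2 at 53.5% ± 13.5. Near ZIC4, OTX1 and NR2F1 no tested island was called lower. The largest negative differences, all in islands over exons of protein-coding genes, were -0.36, -1.19 and -1.30 points. The value of OTX1 was 0.078 points without Reset library 2 and -2.82 points without Reset library 1. That of NR2F1 was 0.617 points without Conventional library 2, which was at 7.07% against 2.12% and 0.532%.

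**Figure D1:**
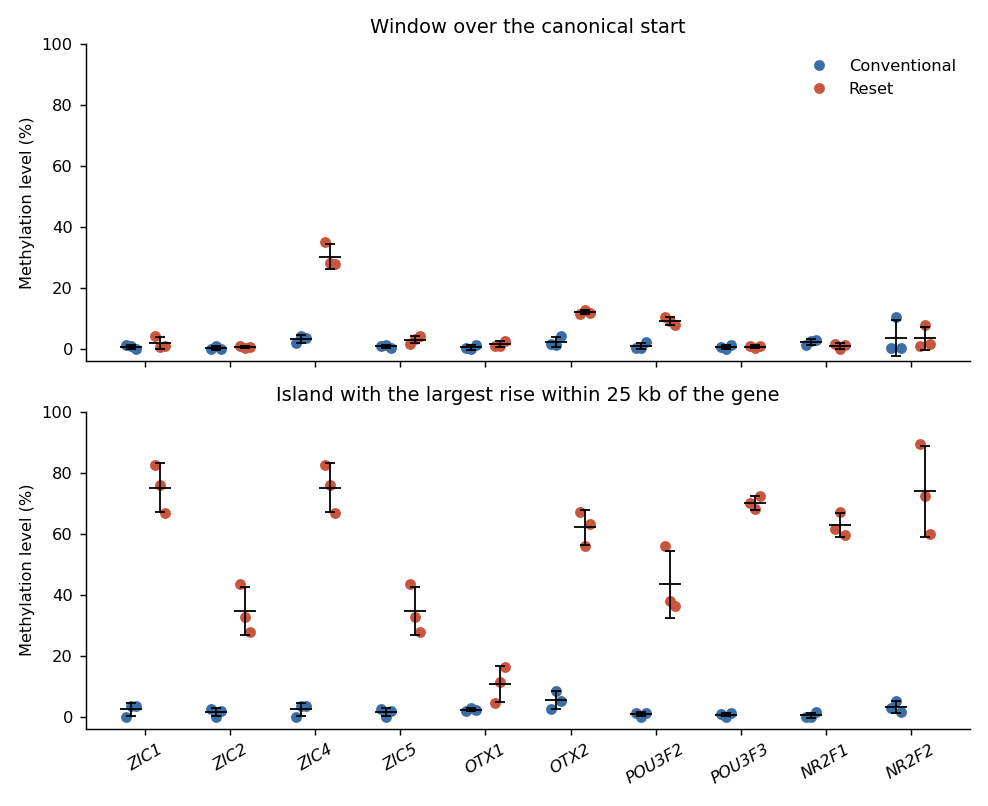
Methylation level (%) in each library (points, 3 Conventional in blue and 3 Reset in red) with the mean and SD (bars). The upper panel is the window around the canonical start of each gene. The lower panel is the island with the largest rise in the gene and 25 kb on each side of it. The start windows of all genes but ZIC4 and OTX2 lay at or under 10.6% in every library, while the islands of 9 genes reached at least 27.9% in every Reset library and that of OTX1 did not.

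Among the ZIC genes the largest rise was in the island shared by the windows of ZIC1 and ZIC4, which are neighbours read in opposite directions. This island, 203 bp with 9 CpGs, lies between genes, 34 kb downstream of the ZIC4 start. Its levels were 0%, 3.57% and 3.45% in the Conventional and 82.6%, 75.9% and 66.7% in the Reset libraries. No library of one group came near the other group, and of all 19665 islands under 20% in Conventional cells this one rose the most, by 72.7 points. It is also small, with 72 calls over the Conventional and 85 over the Reset libraries, and 15 in the shallowest. In all, 12 of the 23 low islands of this locus rose by at least 20 points.

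At the canonical start of ZIC1 the window from 1000 bp upstream to 500 bp downstream stayed at 0.792% ± 0.70 in Conventional and 1.95% ± 2.08 in Reset cells and was not called. ZIC4 was the only one of the 10 genes whose canonical window passed 20% in Reset cells. There the level was 1.91%, 4.2% and 3.68% in the Conventional and 35.0%, 28.0% and 27.7% in the Reset libraries. The window of the ZIC4 start site at position 147123307 of chromosome 3 was at 45.5% ± 6.4 in Reset against 3.16% ± 3.10 in Conventional cells. Deeper in the gene the site at position 147121585 was at 44% and 43.8% in Conventional and Reset cells, and those at 147110178, 147110184, 147110217 and 147110720 stayed between 0.70 and 1.27% in Reset cells. Of the 15 annotated ZIC4 start sites 10 were called higher, beside 2.82% of all windows over the genome. Windows of sites that lie close together overlap, so they are not all separate observations. ZIC1 has another start site at position 147139114, downstream of the canonical one, whose window went from 2.82% ± 1.09 to 44.8% ± 11.3.

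Near ZIC2 and ZIC5, another divergent pair, the rises were smaller. The island with the largest rise, chr13:100611761-100612461, lies 11.9 kb downstream of the ZIC5 start, between genes, and holds 48 CpGs. It was at 2.52%, 0% and 1.98% in the Conventional and at 43.4%, 32.6% and 27.9% in the Reset libraries. The groups did not overlap, and its rise ranked 698 among the low islands of the genome. The canonical windows stayed low, with 0.351% ± 0.61 and 0.689% ± 0.33 for ZIC2 and 0.937% ± 0.47 and 3.11% ± 1.20 for ZIC5. Of these the ZIC5 window was called higher.

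OTX1 and OTX2 parted. The largest rise near OTX2 was in an island of 695 bp with 34 CpGs, chr14:57263795-57264489, that lies between genes, 13.1 kb downstream of the canonical start. Its levels were 2.61%, 8.42% and 5.04% in the Conventional and 67.1%, 55.9% and 63.3% in the Reset libraries. Near OTX1 the largest rise, at chr2:63286423-63287335, went from 2.31% ± 0.56 to 10.6% ± 5.9, with 16.1% in the highest Reset library. None of the 10 low islands and none of the 31 low tiles of OTX1 rose by 20 points with no overlap. Of these islands 6 were called higher, beside 20.4% of all islands under 20% in Conventional cells. The canonical window of OTX2 was at 2.43% ± 1.62 in Conventional and 12.1% ± 0.7 in Reset cells and that of OTX1 at 0.60% ± 0.76 and 1.55% ± 0.97. At an upstream start site of OTX2, position 57283411 of chromosome 14, the window reached 22.2% ± 2.0 from 3.24% ± 0.60. All 5 tested start sites of OTX1 failed the threshold of the quasi-binomial test, with 0 at an unadjusted p under 0.05 and 1 called higher by Fisher's exact test on pooled calls.

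At POU3F3 the island chr2:105480056-105480924 was at 0.787%, 0% and 1.2% in the Conventional and at 69.9%, 68.0% and 72.4% in the Reset libraries. Its 62 CpGs lie 9.9 kb downstream of the start, in an intron of a transcript known only by an identifier, and the Reset libraries differed by less than 5 points. Its rise ranked 4 among the 19665 low islands. The canonical window stayed at 0.671% ± 0.72 and 0.832% ± 0.34. At POU3F2 the island chr6:99290184-99290860, 8.1 kb downstream of the start, went from 1.05%, 0% and 1.14% to 56.0%, 38.0% and 36.1%. The canonical window of POU3F2 was called higher, at 1.01% ± 1.12 and 9.06% ± 1.29.

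Of the nuclear receptors, NR2F2 had its largest rise inside the gene. The island chr15:96877205-96877892 covers a coding exon 3.6 kb downstream of the canonical start, and its levels were 2.67%, 5.22% and 1.65% in the Conventional and 89.5%, 72.3% and 59.7% in the Reset libraries. The spread between the Reset libraries was wide (SD 14.9), but the lowest of them was far above the highest Conventional library. The largest rise of NR2F1 was at chr5:92930393-92930897, 11.7 kb downstream of the start and between genes, from 0%, 0% and 1.37% to 61.5%, 67.2% and 59.7%. With 8 of 16, NR2F1 had the most low islands that rose by at least 20 points of any gene outside the ZIC1-ZIC4 locus. Its canonical window was at 2.35% ± 0.94 and 0.980% ± 0.86, while the windows of start sites further downstream, at positions 92922807 and 92923166, reached 42.0% ± 5.0 and 56.9% ± 9.2. Of its other start sites, the furthest downstream, at position 92927679, was called lower, at 58.6% ± 7.5 and 28.7% ± 7.9. The one at 92920730 was also called lower, at 3.41% ± 4.23 and 1.31% ± 0.47, with Conventional library 2 at 8.24%. This call rests on that library, since without it the levels were 0.991 and 1.31%, a difference of the opposite sign. The window of NR2F2 was at 0.316%, 10.6% and 0.413% in the Conventional and at 1.02%, 7.85% and 1.56% in the Reset libraries. Library 2 of both groups was thus the highest, and in the 1852 islands of at least 70% GC that were under 10% in both groups library 2 was also the highest, at 3.21% in Conventional (2.67% and 2.70% in the others) and 3.02% in Reset cells (2.72% and 2.60%). The part of this in the NR2F2 values was not tested.

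Levels of 0% in the islands with the largest rise and in the canonical windows rested on 15 to 274 calls. They allow a true level of up to 20% for the fewest calls and 1.09% for the most. These limits cover counting error only.

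Over all 53 start sites of the 10 genes, 25 windows were called higher and 3 lower, beside 2.82% and 80.9% of all 212155 windows. By canonical start alone 4 of 10 were called higher (ZIC4, ZIC5, OTX2 and POU3F2), beside 4.41% of the canonical windows of coding genes. Both comparisons are with windows at any level in Conventional cells, not with low windows only. Beside the pair at NR2F1, the lower calls included a distal ZIC1 start site with 5 CpGs, at 92.1% ± 8.4 in Conventional and 7.91% ± 7.70 in Reset cells.

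**Figure D2:**
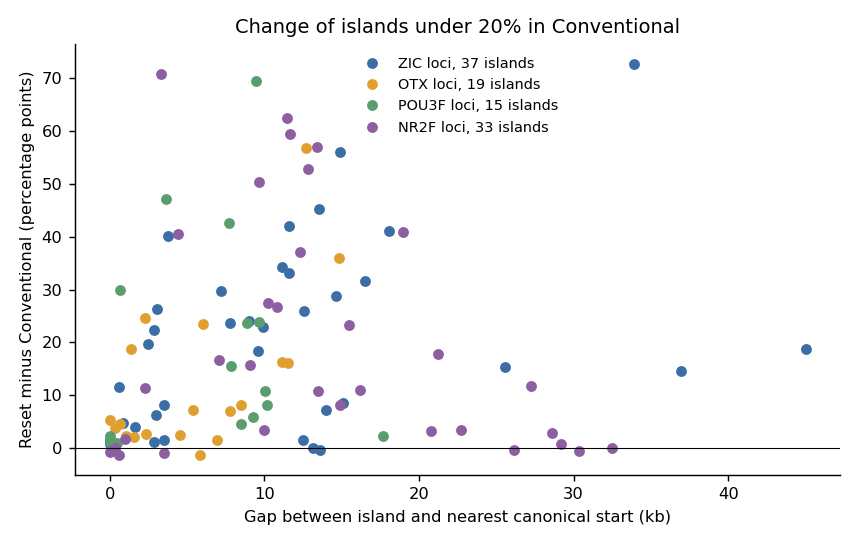
Change of the 104 islands under 20% in Conventional cells (Reset minus Conventional mean level, percentage points) against the gap to the nearest canonical start of the 10 genes (kb), coloured by family. Islands over a canonical start changed by at most 5.44 points, and 20 of 33 islands between 10 and 20 kb away rose by at least 20 points. ZIC4 has no island over its canonical start.

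The islands that rose lay away from the canonical start sites. The 7 islands over a canonical start had a median change of 1.42 points and none over 5.44 points. No island covered the canonical start of ZIC4, whose window went from 3.26% ± 1.20 to 30.3% ± 4.1. Of 13 islands within 2 kb of a start 1 rose by at least 20 points, and of 16 at 2 to 5 kb 7 did so. The counts were 10 of 22 at 5 to 10 kb, 20 of 33 at 10 to 20 kb and 1 of 13 beyond. The longest islands changed least. The 14 islands of at least 2000 bp had a median change of 1.64 points, against 15.8 points under 500 bp, 17.9 points from there to 1000 bp and 16.4 points from 1000 to 2000 bp. Over the genome 2.91% of the longest and 15.7% of the shortest low islands rose by at least 20 points.

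**Figure D3:**
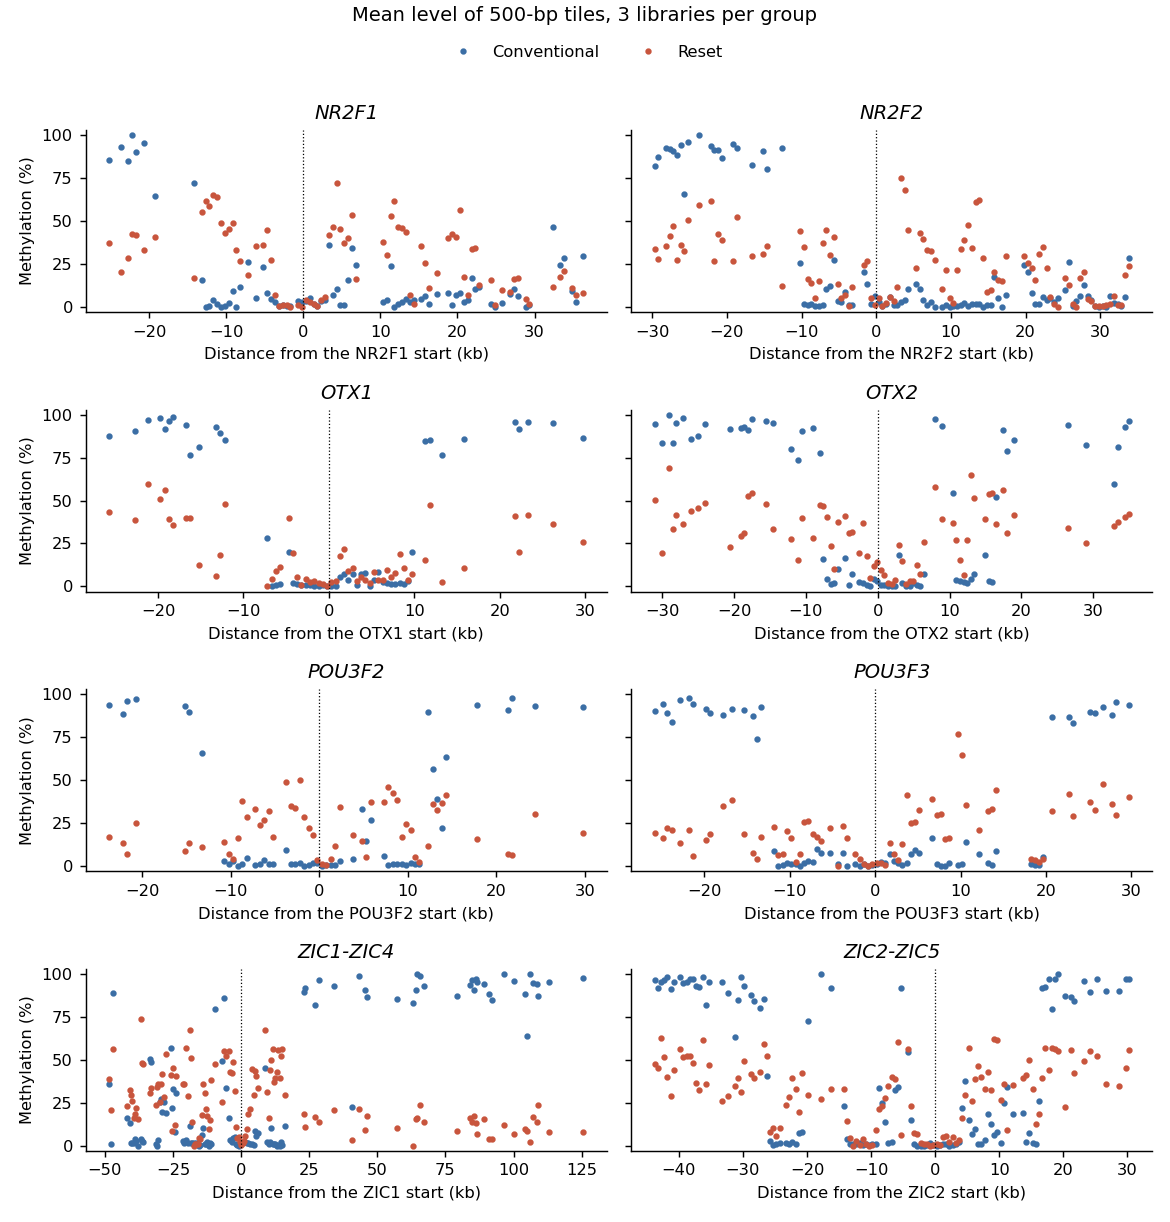
Mean level (%) of 500-bp tiles in Conventional (blue) and Reset cells (red), against distance from the start of the named gene (kb, positive downstream; dotted line at 0), 1 panel per locus. Red points lie at or under 5.03% within 0.5 kb of the start in 7 panels and at 9.7 to 14.2% at OTX2. Elsewhere in the low stretch of the Conventional cells they are often above the blue points, and they lie below them where the Conventional cells were highly methylated. In the OTX1 panel 0 of 31 low tiles rose by 20 points with no overlap, while 16 of 56 tested tiles were called higher (0.737% over the genome).

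The same layout was seen in the 671 tested tiles of 500 bp. Of these, 293 were called higher and 216 lower, beside 0.737% and 95.9% of 1982370 tiles over the genome. Of the 416 tiles under 20% in Conventional cells, 160 rose by at least 20 points with no overlap (38.5%), where 8.45% of such tiles did so over the genome. The share was largest in the ZIC1-ZIC4 locus with 43 of 73 tiles, followed by POU3F2 with 18 of 35 and NR2F1 with 30 of 63. It was lowest in POU3F3, with 12 of 48, and OTX1, with 0 of 31. Tiles over 50% in Conventional cells went from a median of 91.5 to 33.7% in the 209 tiles of the loci, with 92.4 and 33.7% over the genome. In Reset cells their median was 14.0% in the ZIC1-ZIC4 locus and 13.5% at POU3F2 but 44.7% in the ZIC2-ZIC5 locus. Most of those in the ZIC1-ZIC4 locus lay downstream of the ZIC1 start inside its annotated body, while the one furthest out beyond ZIC4 was at 56.0%. Tiles of that locus that had been low had a median of 29.3% in Reset cells.

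By distance, 7.5% of the low tiles within 1 kb of a canonical start rose, and the share was 11.1% at 1 to 2 kb, 20.6% at 2 to 3 kb and 36.4% at 3 to 5 kb. Beyond 5 kb it was 50.4 to 54.1%. The mean level in Reset cells went from 6.29% within 1 kb to 29.1% at 15 to 25 kb, while Conventional cells stayed between 1.68 and 4.34%. For 338 other genes with a start in a valley of at least 5 kb the share that rose was 12.1% within 1 kb, 26.8% at 1 to 2 kb, 31.9% at 2 to 3 kb, 34.9% at 3 to 5 kb, 38.6% at 5 to 10 kb, 32.2% at 10 to 15 kb and 26% at 15 to 25 kb. It was thus above that of the 10 genes up to 3 kb and below it from there on, though close to it at 3 to 5 kb. The genes compared change with distance, since the tiles at 15 to 25 kb came from 8 of the 10 genes and 143 of the 338 others. Tiles near several starts were counted for each gene. Those shared by ZIC1 and ZIC4, or by ZIC2 and ZIC5, thus entered once for each gene of the pair. Of the 160 distinct tiles that rose, 43 lay in the ZIC1-ZIC4 locus and 20 in the ZIC2-ZIC5 locus. The part of these pairs in the difference from the 338 other genes was not tested.

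**Figure D4:**
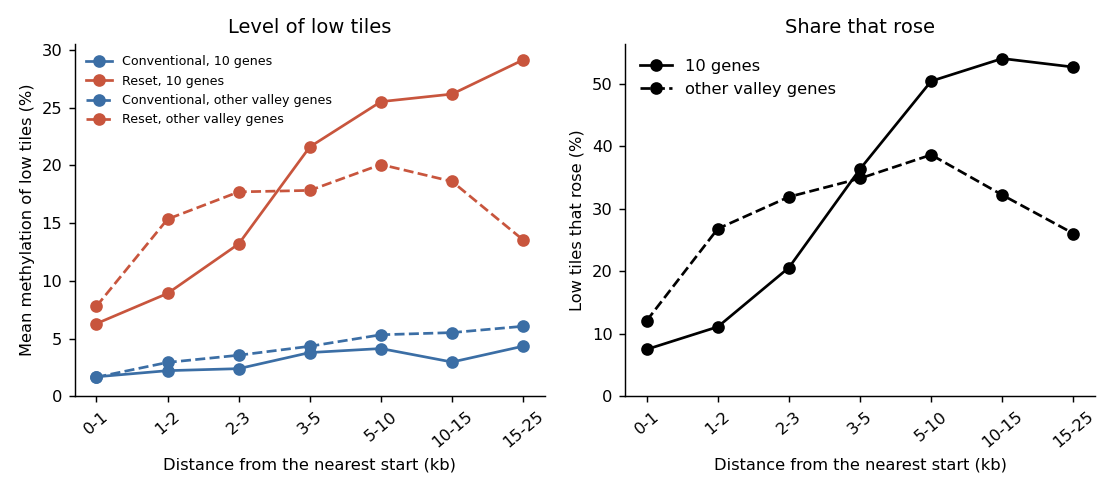
Mean level of tiles under 20% in Conventional cells (left, %) and share of them that rose by at least 20 points with no overlap (right, %), by distance from the canonical start (kb), for the 10 genes (solid) and 338 other genes with a start in a long valley (dashed). The share near the 10 genes climbed from 7.5% within 1 kb to 52.7% at 15 to 25 kb, and that near the other genes was 26% there. A tile shared by neighbouring genes, as in the ZIC pairs, is counted for each of them.

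A valley was taken as a run of tiles under 15% in the pooled Conventional cells over at least 2.5 kb. There were 3116 valleys, of which 14 covered a start site of the 10 genes. Of these, the 7-kb valley over the downstream ZIC1 start changed most. It was at 1.86%, 1.81% and 1.89% in the Conventional and at 38.4%, 39.4% and 45.2% in the Reset libraries, a rise that ranked 26 among the 450 valleys of at least 5 kb. Valleys of 12 and 11 kb over ZIC4 and ZIC1 starts reached 23.6% ± 3.0 and 18.0% ± 5.5. The 17-kb valley of NR2F2 went from 2.58% ± 1.34 to 20.2% ± 2.1 and the 9-kb valley of POU3F2 from 1.39% ± 0.43 to 19.1% ± 4.3. At 18.5 kb the valley of POU3F3 was the longest of the 14, but rose only from 2.63% ± 0.64 to 10.4% ± 2.1. The valleys over the canonical starts of OTX1 (14 kb), NR2F1 (8 kb), ZIC2 (8 kb) and ZIC5 (5 kb) ended between 2.99 and 6.37%. OTX2 starts lay in 3 valleys of 7, 3.5 and 2.5 kb, which went from 1.27% ± 0.29 to 10.2% ± 2.6, from 1.54% ± 0.32 to 8.23% ± 1.49 and from 4.31% ± 0.64 to 25.7% ± 2.1. A second NR2F2 valley, of 3.5 kb, was at 2.68% ± 0.17 and 5.43% ± 0.37. The median change was 8.39 points over the 14 valleys, 0.598 points over all 3116 valleys and 8.74 points over the 450 valleys of at least 5 kb. The 14 include the shorter valleys of OTX2 (3.5 and 2.5 kb) and NR2F2 (3.5 kb).

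**Figure D5:**
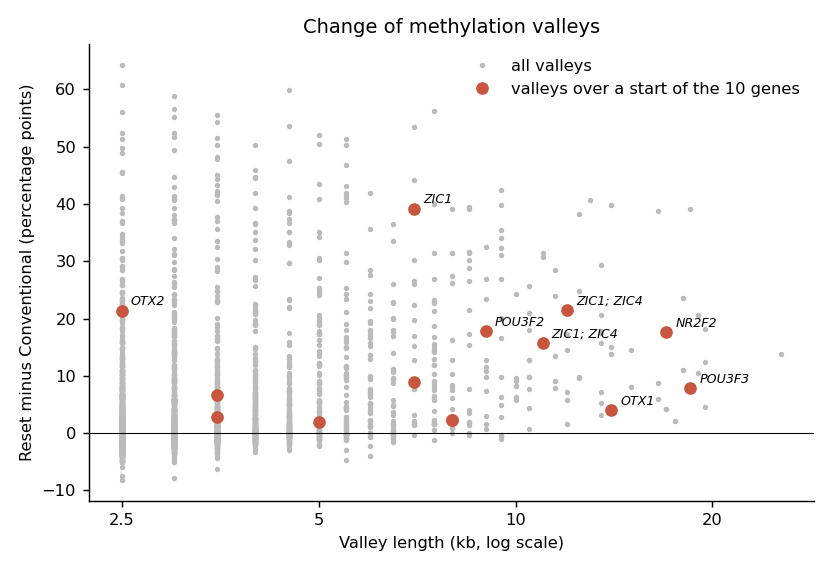
Change in mean level (Reset minus Conventional, percentage points) against length (kb, log scale) for all 3116 valleys (grey) and the 14 valleys over a start site of the 10 genes (red, labelled where the change or length is large). The ZIC1 valley of 7 kb rose by 39.1 points, while the longest, at POU3F3, rose by 7.81.

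Gene bodies, from 500 bp after the first start to the end, moved in both directions. Bodies of 7 genes were called higher and 2 lower, beside 1.1% and 97.9% of the bodies of coding genes at any level in Conventional cells. The largest rise was that of ZIC4, from 9.34% ± 0.82 to 26.4% ± 2.7, followed by NR2F1 with 9.15% ± 1.63 and 23.7% ± 0.6 and NR2F2 with 3.95% ± 1.99 and 14.9% ± 1.9. Bodies of POU3F3 and POU3F2 went from 2.98% ± 1.47 to 9.45% ± 2.90 and from 2.16% ± 1.13 to 8.27% ± 4.2. Those of OTX2 and OTX1 went from 8.26% ± 1.43 to 13.6% ± 2.0 and from 3.56% ± 1.03 to 7.48% ± 0.11. The ZIC1 body, which includes a long transcript in this annotation, fell from 40.2% ± 0.7 to 22.5% ± 0.4, and that of ZIC5 fell from 16.5% ± 2.1 to 8.74% ± 0.80. The ZIC2 body was not called, at 3.60% ± 0.47 and 4.50% ± 0.43.

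Within the 39 islands that rose by at least 20 points the methylation was partial and spread over most of the CpGs. Of 1503 CpGs with at least 5 calls over the Reset libraries, 23.6% were under 20%, 69.6% at 20 to 80% and 6.79% above 80%. In the 65 other low islands 86.5% of 3855 CpGs were under 20%. The islands were sorted by their rise in the same calls, so a difference between these shares was given in advance. The strands differed by a median of 3.53 points and by up to 25.3 points in the risen islands. Their coverage, relative to the library, had a median ratio of Reset to Conventional cells of 1.06 (0.777 to 1.84). That of the other low islands had one of 1.10 (0.766 to 1.72). Median GC content was 56.7% in the risen and 59.4% in the other islands. Of the 39 islands, 11 touched an exon of a protein-coding gene, 9 lay in introns only, 6 in exons of other gene types only and 13 between genes.

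All coding genes were ranked by the number of low tiles within 25 kb that rose, with no overlap between the groups. ZIC4 ranked 2 with 43 tiles, ZIC1 ranked 3, equal with EVX2, with 42, NR2F1 ranked 17 with 30 and NR2F2 ranked 44 with 23. ZIC2 and ZIC5 followed with 20 tiles each, POU3F2 with 18, OTX2 with 14 and POU3F3 with 12, so that 7 of the 10 genes were among the first 100. ZIC1 and ZIC4 share nearly all of their tiles, with 43 that rose in the joined locus, and the 20 of ZIC2 and ZIC5 are the same tiles. OTX1 had none, like 17561 genes of the annotation. The genes outside the list with the most such tiles, and in that measure the most alike, were HOXD13 (48), EVX2 (42), EN1 (41), HOXD11 and HOXD12 (40 each), HAND2 and HOXA3 (38 each) and HOXB3 (36), all of them homeobox or other developmental transcription factors. Several of these are neighbours in the HOXD cluster and share tiles.

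Relatives outside the list were also examined. CRX, POU3F1, POU3F4 and NR2F6 had few low tiles, between 1 and 14 each, and no tile that rose by at least 20 points with no overlap. The canonical window of POU3F4, a neural POU factor on the X chromosome, was called higher, at 32.6% in Conventional and 53.4% in Reset cells. That of CRX, a photoreceptor homeodomain factor, was called lower, at 66.7 and 37.3%. Of 25 other early neural regulators 16 canonical windows were called higher and 1 lower. Over the genome 4.41% of the canonical windows of coding genes were called higher, and 83.1% of those of all gene types lower. These shares are of windows at any level in Conventional cells, whereas all windows of the 25 genes were under 20% there. The median change was 3.17 points in the list. In the 11059 canonical windows of coding genes under 20% the median was -2.57 points and the percentile of 95 was 5.00 points. Of the 25 genes 23 had at least 1 tile that rose, with a median of 10 tiles, whereas 17561 of 20098 coding genes had none. The largest changes of canonical windows in that list were those of OLIG2, a factor of oligodendrocytes and motor neurons, from 1.20 to 35.9%, and SIX3, a forebrain factor, from 1.59 to 36.2%. EN1, a midbrain factor, had 41 of 45 low tiles that rose, and SOX2, a factor of neural and pluripotent cells, had 0 of 27, with its window at 1.34 and 2.46%.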

How the data were processed

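Sonicated genomic DNA was ligated to methylated adapters, treated with bisulfite and sequenced. Per the study's methods the authors used Trim Galore for trimming and Bismark for alignment to GRCh37 (0.9.0 in the submitters' notes; the study's methods name an earlier release), and removal of duplicate reads is not given in the sources used here. The deposited values were whole-number counts of methylated and unmethylated calls per cytosine, beside the deposited percent of methylated calls. Positions were counted from 0, and 99.8% of rows lay at a CpG of the GRCh37 sequence. Calls of both strands were summed (70186287 to 97822789 calls per library), and printed coordinates count from 1.

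Islands, windows around every start of GENCODE release 44 for GRCh37 (1000 bp upstream to 500 bp downstream), tiles of 500 bp and gene bodies were tested over the whole genome, where every library had at least 10 calls. The test was a quasi-binomial logistic model with a likelihood-ratio F test, dispersions squeezed with limma 3.58.1 and kept at 1 or more, and Benjamini-Hochberg adjustment with a threshold of 0.05. It was run on simulated data with large planted changes only, which does not cover the small changes called here. The groups are those of the labels, with 3 libraries each. An exact permutation test of 3 against 3 cannot go below p = 0.1, so none was used. The study calls its libraries biological replicates; whether they are separate cultures or passages is not given in the sources used here. Within a group libraries differed by 1.45 to 1.58 times the sampling variance, so none was counted as a duplicate. The members and lists were chosen with earlier results of these data known.

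For each gene the text names the canonical window, the body, the valleys over a start and the islands with the largest rise and fall among those tested. Start sites other than the canonical one, and the genes named from the neural list, were chosen after their values were seen. The alternatives tried were different call minimums, different bounds of islands, windows, tiles and valleys, Fisher's exact test, the replicate number as a block and leaving out each library. The last of these was added for the tiles that rose after the data had been seen. A further gene examined is not reported here.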

Additional observations from a re-analysis of the deposited data

How the results depend on the processing

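Of the called features near the 10 genes, 1 of 28 windows (NR2F1) and 1 of 509 tiles (at the NR2F2 start) changed direction without Conventional library 2, to 0.323 and 0.533 points from -2.09 and -5.22, and no island or body did so when any 1 library was left out; counts moved with the definitions. Each count is followed by the share of all features called likewise. With at least 20 calls per library, 7 of 101 islands (74.1%), 1 of 51 windows (79.5%) and 45 of 383 tiles (89.2%) were called lower, and with at least 5 calls 420 of 932 tiles (96.5%). Islands of at least 500 bp were also built with stricter bounds of GC and CpG frequency, and of these 62, 36 were called higher (10.4%) and 0 lower (36.2%). The lower count was 0 at an unadjusted p under 0.05 of the quasi-binomial test as well, and 1 by Fisher's exact test. Windows from 500 bp upstream gave 1 of 52 called lower (66.8%). Canonical starts, tested on their own, gave 4 of 10 higher (2.87%) and 0 lower (83.1%). The lower count was also 0 at an unadjusted p under 0.05 of the quasi-binomial test and 0 by Fisher's exact test. These shares are of the canonical windows of all gene types, whereas the 4.41% above is of coding genes only. Tiles of 1000 bp gave 180 of 524 called higher (0.421%). Asking also for a change of at least 10 points and no overlap left 53 islands (2.15%), 13 windows (1.21%) and 3 bodies (0.698%) higher, and 1 body lower (97.3%). Valleys cut at 20% in place of 15% had a median rise of 12.4 instead of 8.39 points; the cause was not tested.

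Library 2 was the highest of both groups in the very GC-rich islands described above. Deviations from the group means had correlations of 0.0029, 0.0012 and 0.00041 between same-numbered libraries. These values gave no sign that the replicate numbers pair the samples, but whether same-numbered libraries shared a preparation was not tested. With the number as a block, 67 islands (2.95%), 25 windows (2.66%), 236 tiles (0.477%) and 7 bodies (1.09%) were called higher and 11 (79.8%), 2 (80.2%), 198 (92.6%) and 2 (97.9%) lower. Without any 1 library, 71 to 81 islands (3.34 to 3.49%), 24 to 26 windows (2.54 to 2.69%) and 269 to 284 tiles (0.605 to 0.648%) were called higher, 157 to 167 low tiles rose, and the largest rise had a median over the 10 genes of 58.6 to 60.2 points. At about 3 calls per CpG and library, single CpGs and islands of few CpGs are the least certain values.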
